A study of Mus musculus with 16 samples.

Results

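The members described here are the contacts that 5C counted between different loci. 5C (chromosome conformation capture carbon copy) amplifies ligation junctions between chosen HindIII fragments with primers of alternating forward and reverse orientation, so that each count joins a forward-primed and a reverse-primed fragment. The primers covered 1551 fragments (768 forward and 783 reverse) in 7 mouse loci, and a primer pair was a member when the locus in the forward primer's name differed from the locus in the reverse primer's name. That gave 504101 between-locus primer pairs of 601344 forward-reverse primer pairs in all, the other 97243 lying within a locus. The members fall into 21 pairs of loci, of which Sox2-Nestin alone joins loci on the same chromosome, 52.2 Mb apart.

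On the mm9 assembly the Sox2 locus was chr3:34107374-35107373 with 265 fragments, and the Nestin locus was chr3:87282064-88377995 with 205. The Klf4 locus was chr4:54896446-55891772 with 251 fragments, and the gene desert, the study's negative control, was chr5:133305260-133503397 with 50. The Nanog locus was chr6:122186812-123334399 with 189 fragments, and the Olig1-Olig2 locus was chr16:90611387-91756617 with 274. The longest, Oct4, was chr17:34428607-36528892 with 317 fragments over 2100 kb, against 198 kb for the gene desert. Oct4, Sox2, Nanog and Klf4 encode transcription factors of pluripotent cells, Sox2 being also a factor of neural progenitors. Nestin encodes an intermediate filament protein of neural progenitors, and Olig1 and Olig2 encode transcription factors of the oligodendrocyte lineage.

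The study compared 3 untreated groups with 2 libraries each. Mouse V6.5 embryonic stem (ES) cells, a male line of 129SvJae x C57BL/6 background, were grown either in serum-free 2i medium with LIF and the kinase inhibitors CHIR99021 and PD0325901, or in serum with LIF. Per the labels' protocols they were expanded on mitotically inactivated feeder cells and then moved to gelatin to remove the feeders. Neural progenitor cells (NPCs) were primary cells from whole brains of postnatal day 1 Sox2-eGFP mice of the same background, grown as neurospheres and plated on a coated surface for the last day. Difference of cell type and of source (a single ES line against primary cells that carry a reporter) cannot be told apart. Nothing in the labels gives separate cultures or animals for the 2 libraries of a group. A p-value therefore refers to the spread among libraries, and that spread may be technical.

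Chromosomes occupy separate territories in the nucleus, and contact between loci on the same chromosome falls steeply with the distance between them. Contacts between chromosomes are therefore rare, and in a proximity ligation assay they are read together with ligation of fragments that were not neighbours in the nucleus. Between-locus counts are for that reason often used as a background in 5C, and counting alone does not separate the contributions.

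Forward-reverse counts ranged from 11759137 to 26323793 per library, the ES serum libraries being the deepest. Of 6 libraries, replicate 1 of ES cells in 2i and replicate 2 of NPCs stood apart from the rest by a low between-locus share. Counts of called pairs of loci and window pairs, and named differences, that change without them are given both ways. Counts of called single windows are not given both ways in every comparison. No 2 libraries of a group were copies of each other: the chi-square of their counts over pairs of 100 kb windows, divided by its degrees of freedom, was 8.91 in 2i, 14.0 in serum and 21.2 in NPCs, where sampling noise gives about 1. Counts are reads without molecular identifiers, so intervals cover counting error only.

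Between-locus contacts made up a minority of the counts in every library. They held 8.08% and 15.9% of forward-reverse counts in the ES 2i libraries, 17.5% and 19.0% in the ES serum libraries, and 15.5% and 10.7% in the NPC libraries. Both ES serum values lay above the other 4, while 2i and NPC values overlapped and the replicates of 2i differed by 7.83 percentage points. Group means were 12.0% ± 5.5 in 2i, 18.3% ± 1.0 in serum and 13.1% ± 3.4 in NPCs (SD, n = 2). The 95% Wilson interval of a single library was at most 0.0191 percentage points to either side by counting error, far less than the difference between replicates of 2i or of NPCs.

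An exact two-sided permutation test of serum against 2i and of serum against NPCs gave p = 0.333 each, the smallest p that 2 against 2 libraries allow, and NPCs against 2i gave p = 1. Over all 3 groups the exact permutation p was 0.333, where 0.0667 is the smallest possible. Without the 2 low-share libraries, the remaining 4 lay between 15.5% and 19.0%. Leaving out 87 within-locus primer pairs that each held over 0.1% of a library's within-locus counts gave 9.07%, 17.5%, 19.8%, 21.5%, 17.6% and 12.1%, in the same order of libraries, so both serum values again lay above the rest.

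**Figure D1:**
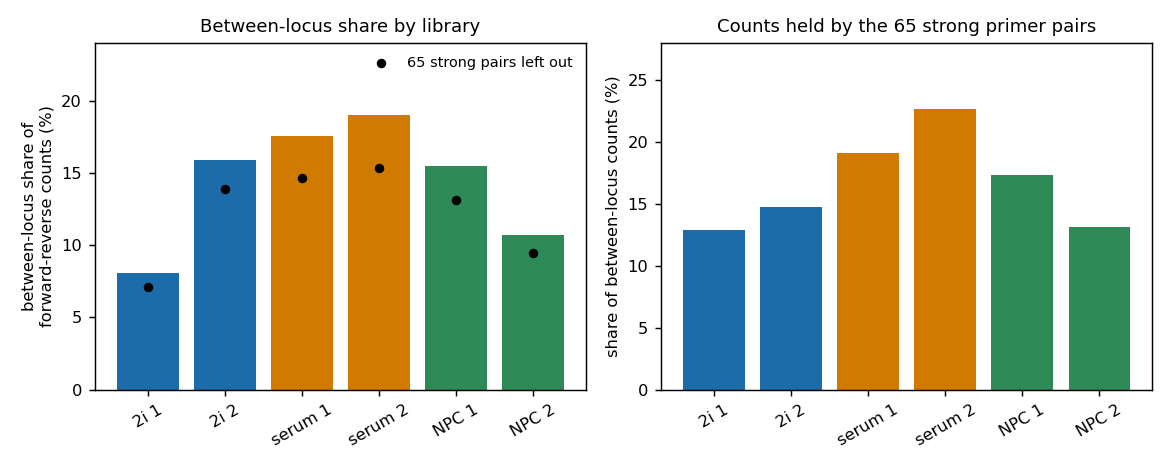
Left, the between-locus share of forward-reverse counts (%) in each of 6 libraries as bars, with black points for the share after the 65 strong primer pairs described further on were left out; right, the share of between-locus counts (%) held by those 65 pairs. The bars of the ES serum libraries (17.5% and 19.0%) stand above all others, and replicate 1 of 2i (8.08%) and replicate 2 of NPCs (10.7%) are the lowest.

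The contact level of a between-locus primer pair was far below that of a primer pair within a locus. Counts per primer pair, in CPM (counts scaled to the library's forward-reverse total) and with the 65 strong between-locus pairs described further on left out, averaged 56.5 ± 10.9 (SD, n = 6 libraries) for fragments of a locus less than 50 kb apart. The average fell to 9.78 at 50 to 200 kb, 3.16 at 200 to 500 kb, 1.86 at 500 kb to 1 Mb and 0.981 above 1 Mb. For loci on different chromosomes it was 0.235 ± 0.062, and for Sox2-Nestin it was 0.257 ± 0.048.

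By library, the level between different chromosomes was 0.138 and 0.268 in 2i, 0.281 and 0.291 in serum, and 0.253 and 0.182 in NPCs. Contacts over 1 Mb within a locus were 3.45 to 6.40 times as frequent as contacts between chromosomes. Contacts under 50 kb were 439, 195, 170, 144, 263 and 385 times as frequent, the low-share libraries having the widest gap of their group. Within the Oct4 locus, the only one long enough, fragments at least 1.5 Mb apart still met 2.78 to 4.39 times as often as Oct4 fragments met those of other loci.

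**Figure D2:**
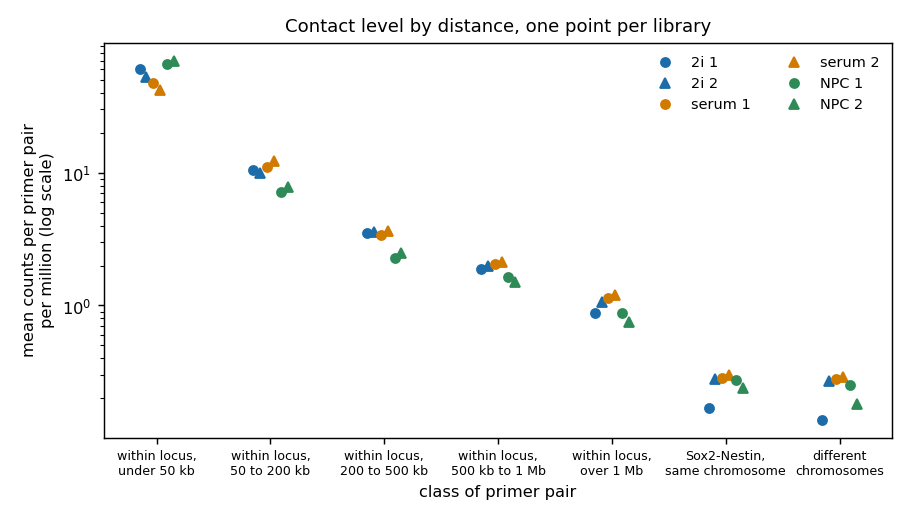
Mean CPM of forward-reverse counts per primer pair (log scale) in classes of distance within a locus, for Sox2-Nestin and for loci on different chromosomes, 1 point per library. Levels fall from an average of 56.5 under 50 kb to 0.981 above 1 Mb, and the between-locus classes, at 0.257 and 0.235, lie lower still.

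Single between-locus primer pairs were sparsely counted. In the ES 2i libraries 48.6% and 74.8% of pairs had at least 1 count, in serum 72.6% and 67.4%, and in NPCs 59.2% and 51.9%. A detected pair held on average 3.88 and 5.96 counts in 2i, 12.6 and 14.3 in serum, and 7.70 and 6.01 in NPCs, where serum lay above all others and depth was highest too (exact permutation p over 3 groups = 0.0667, the smallest possible). Over the 6 libraries together, 19895 pairs (3.95%) were never seen and 88581 (17.6%) were seen in every library.

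The sparse field was uneven. Of the 504101 pairs, the 5041 with the highest counts in a library (1%) held 31.2% to 48.4% of its between-locus counts. To compare pairs, an expected count was computed per library as the product of a forward and a reverse factor, fitted so that each primer's between-locus total was met; observed over expected (O/E) is 1 for a pair that is counted as often as its primers' totals predict. The median pair had an O/E of 0.616 over the summed libraries, and 10% of pairs were below 0.176 and 10% above 1.67. A further 3395 pairs (0.674%), the strongest 65 not included, had an O/E over 10 and held 19.6% of the counts.

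Unevenness recurred between libraries. Over 16437 pairs with an expected count above 5 in each library, log2 O/E correlated between libraries of a group with Pearson's r = 0.34 in 2i, 0.46 in serum and 0.36 in NPCs, and between libraries of different groups with r = 0.32 to 0.42. These correlations are across primer pairs, which share primers and library depth, and they are given as a description.

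A small set of primer pairs carried a large part of the between-locus counts. In at least 1 library, 65 primer pairs (0.0129% of all members) each held over 0.1% of the between-locus counts, and together they held 12.9% and 14.8% in the 2i libraries, 19.1% and 22.7% in serum, and 17.3% and 13.2% in NPCs. All 65 were detected in each of the 6 libraries, 16 were over 0.1% in all 6, and 16 were over it in 1 library only. Their O/E over the summed libraries had a median of 298 and ran from 48.6 to 2832. They lay in 17 of 21 pairs of loci, most often Sox2-Oct4 (11 of 41999 primer pairs), Nestin-Oct4 (7 of 32482) and Nestin-Olig1-Olig2 (7 of 28082). Sox2-Nestin had 2 of 27161. The pair of loci with the most primer pairs, Olig1-Olig2-Oct4, had 4 of 43422, and over all members it was 65 of 504101. They used 120 fragments, of which 10 took part in 2 strong pairs. Median length was 2374 bp for these fragments and 2628 bp for the other 1431.

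The strongest pair joined an Olig1-Olig2 fragment, chr16:91416344-91418461, with a Nestin fragment, chr3:88310991-88315679. It had 33757 and 64151 counts in 2i, 217566 and 261431 in serum, and 67895 and 35306 in NPCs, or 2.24% to 5.37% of all between-locus counts of a library. It was first among between-locus pairs in each library, and its share was highest in both serum libraries. Neighbouring fragments were lower. With the Nestin fragment fixed, the highest of 6 other forward fragments within 20 kb had 46410 counts over the 6 libraries against 680106, and their median was 760. That neighbour, with an O/E of 216, was itself 1 of the 65 strong pairs. With the Olig1-Olig2 fragment fixed, the highest of 5 reverse fragments within 20 kb had 161 counts.

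The second pair joined Oct4 chr17:34532082-34532748 with Nestin chr3:87351707-87360598 and had 12589, 49111, 84168, 112103, 53290 and 28656 counts (2i, serum, NPCs, 2 libraries each). The third joined Klf4 chr4:55768819-55773118 with Nestin chr3:87576424-87581553 and had 8291, 20583, 73100, 99333, 24499 and 10653. The fourth joined Oct4 chr17:35039456-35040447 with Sox2 chr3:34235733-34236154 and had 6080, 21673, 60421, 78765, 24193 and 9891. The fifth, Oct4 chr17:34818071-34831951 with Sox2 chr3:34988533-34991956, had 4957, 18553, 41077, 51560, 21948 and 8458. As shares of a library's between-locus counts, which take out depth, serum replicate 2 was highest in the third, the fourth and the fifth pair, at 2.04%, 1.62% and 1.06%. The second pair did not separate serum from the rest, with 1.83% and 2.30% in serum and 2.32% in replicate 1 of NPCs, and the fifth had 0.891% in serum replicate 1 against 0.955% in NPC replicate 1. Replicate 2 of NPCs was lowest in the first, the third and the fourth pair, and replicate 1 of 2i in the second and the fifth.

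Their neighbours were far lower as well. The highest neighbour within 20 kb on either side reached 9895 counts beside the second pair's 339917, being a strong pair itself with an O/E of 120, and 5323 beside the third pair's 236459. Beside the fourth pair's 201023 it reached 818, and beside the fifth pair's 146553 it reached 994. For all 65 strong pairs together, neighbours that were strong pairs themselves, such as those named above, were left out. The remaining pairs of neighbouring fragments within 20 kb had, summed, a median O/E of 1.46, and in 25 cases it was over 2. Taking the median O/E of these remaining pairs for each strong pair, the median over the 65 was 0.693.

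A strong pair's share differed between libraries by a median of 3.80 times from lowest to highest, with a range of 1.42 to 452 times, and 11 pairs differed by over 10 times. Some of these differences set 2i replicate 1 and NPC replicate 2 against the other libraries. Nestin chr3:88200952-88201632 with Olig1-Olig2 chr16:91405713-91410656 had 30 counts in 2i replicate 1 and 60 in NPC replicate 2, against 3313, 11535, 12215 and 3781 in the others. Oct4 chr17:36095627-36099528 with Nanog chr6:122324016-122324471 had 6 and 4 counts in these libraries, against 2579, 3246, 5075 and 2287. In all, 5 strong pairs were under 0.01% in both of those libraries and over it in the other 4, and in 34 of 65 pairs the share was lower in both of those libraries than in any of the other 4. The opposite held for 5 pairs. Each of them had a Sox2 fragment, as did 27 of all 65 strong pairs. For example, Sox2 chr3:34140802-34143884 with Oct4 chr17:34837687-34837846 held 0.407% and 0.912% in those 2 libraries and at most 0.271% in the others. Those 2 libraries were set apart after the data were seen. The strong pairs were themselves chosen by a high share in any library. The group mean of the share was highest in serum for 38 of the 65 pairs, in NPCs for 22 and in 2i for 5. The count of pairs lower in both of those libraries was not made over all between-locus pairs. Whether the split is particular to strong pairs was therefore not tested.

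**Figure D3:**
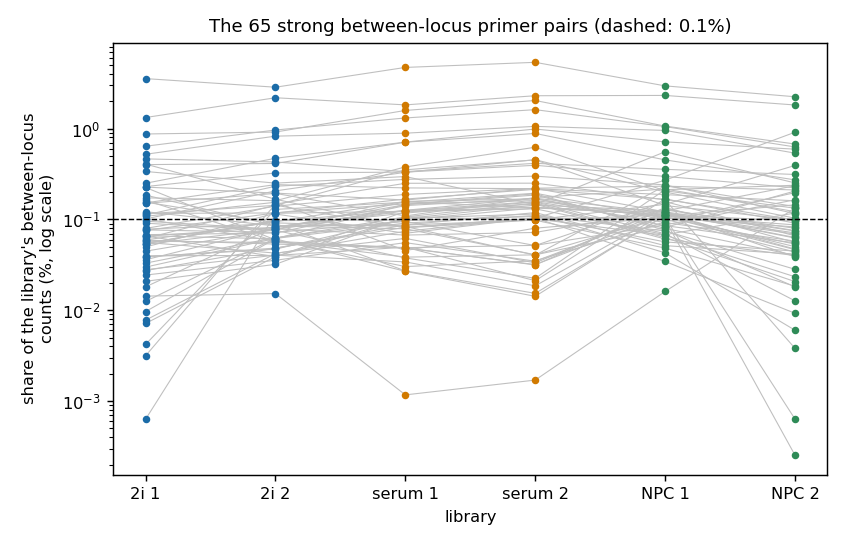
Share of a library's between-locus counts (%, log scale) held by each of the 65 strong primer pairs, 1 point per pair and library, with grey lines joining the same pair. The highest share of a pair is a median of 3.80 times its lowest, and 5 pairs fall under 0.01% in both replicate 1 of 2i and replicate 2 of NPCs while staying above it in the other 4 libraries.

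With the 65 strong pairs left out, the 21 pairs of loci were counted close to what their primers' totals predicted. The expected counts were fitted to those same totals, so values above and below 1 offset each other within each locus. Closeness to 1 is thus set in part by the fit. O/E ranged from 0.852 to 1.14 over all pairs and libraries, and 16 of 21 pairs had a mean within 5% of 1. Klf4-gene desert had the highest mean, with 1.09 and 1.07 in 2i, 1.03 and 1.08 in serum, and 1.06 and 1.14 in NPCs. Nestin-gene desert had the lowest mean, with 0.894 and 0.883 in 2i, 0.863 and 0.856 in serum, and 0.873 and 0.862 in NPCs. Nestin-Nanog was low too, at 0.926, 0.956, 0.946, 0.933, 0.904 and 0.852. The 3 groups overlapped in Klf4-gene desert, 2i lay above the others in Nestin-gene desert, and NPCs lay below the others in Nestin-Nanog.

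Altogether 6 pairs of loci were above 1 in all 6 libraries and 6 were below 1 in all 6. With the 927 primer pairs over 0.01% left out in place of 65, 5 and 5 of these held, and O/E ranged from 0.891 to 1.12. With no primer pair left out, 3 and 5 held and the range widened to 0.639 to 1.60. An expected count from all forward-reverse totals of the primers, within-locus counts included, gave 0.610 to 2.23, and 3 and 1 of the 12 pairs held.

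**Figure D4:**
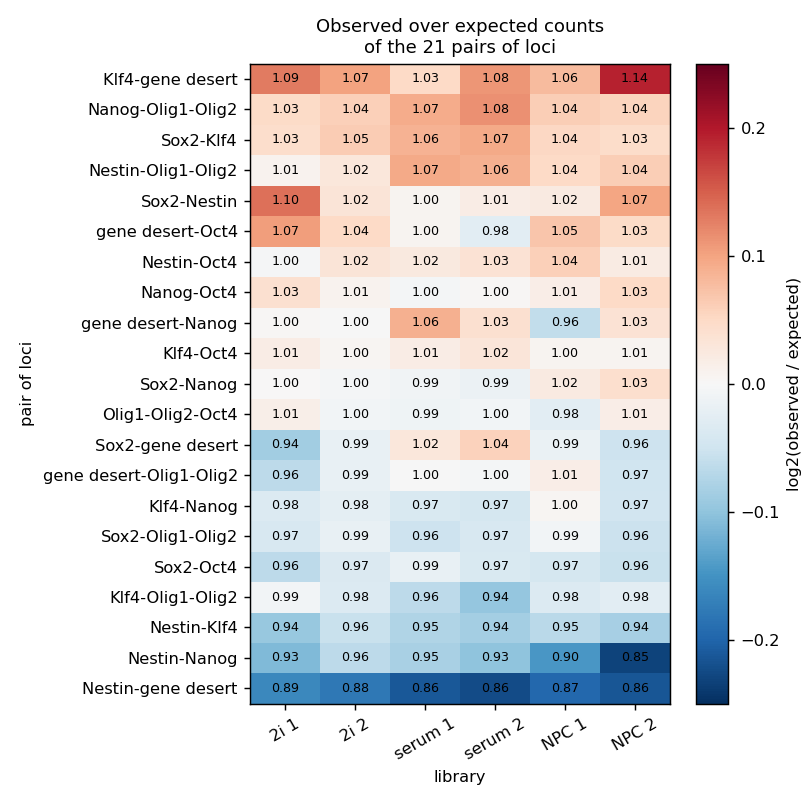
O/E of the 21 pairs of loci (rows, ordered by their mean) in 6 libraries (columns), the colour giving log2 O/E and the number O/E itself, after the 65 strong primer pairs were left out. Values run from 0.852 to 1.14, with Klf4-gene desert highest and Nestin-gene desert lowest by mean.

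Sox2-Nestin, the pair of loci on chromosome 3, was slightly above the mean of the pairs on different chromosomes, but not above each of them. By its mean O/E of 1.038 it was below Klf4-gene desert (1.080), Nanog-Olig1-Olig2 (1.051), Sox2-Klf4 (1.046) and Nestin-Olig1-Olig2 (1.040). Its O/E was 1.10 and 1.02 in 2i, 1.00 and 1.01 in serum, and 1.02 and 1.07 in NPCs. It was the highest of 21 pairs in replicate 1 of 2i and the second highest in replicate 2 of NPCs, the low-share libraries, and ranked 6 to 9 in the others. On the log2 scale it exceeded the mean of the other 20 pairs by 0.061 ± 0.057 (SD, n = 6 libraries), in 6 of 6 libraries, with an exact two-sided sign-flip permutation p of 0.03125, the smallest that 6 libraries allow. That test treats the 6 libraries of 3 groups as repeats of the same measure. Without the 2 low-share libraries the excess was 0.025 ± 0.011 (SD, n = 4), in 4 of 4.

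The direction depended on whether the strong primer pairs were left out. With none left out the value was -0.40, below 0 in 6 of 6 libraries. The exact sign-flip permutation p for that opposite direction was 0.03125 as well. With the pairs over 0.01% left out the value was 0.10 (exact p = 0.03125). With the expected count from all totals it was 0.088, above 0 in 3 of 6 libraries (exact p = 0.375). As a level per primer pair, Sox2-Nestin exceeded different chromosomes by factors of 1.22, 1.04, 1.02, 1.02, 1.08 and 1.31.

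Differences between groups in the 21 pairs of loci were small. The counts of each pair were tested with edgeR's quasi-likelihood test with the expected count as offset, all 6 libraries in 1 fit, and a pair was called where the Benjamini-Hochberg adjusted p was under 0.05. NPCs against 2i gave 0 of 21 calls (0%), with 1 at an unadjusted p under 0.05 and 1 call by DESeq2. NPCs against serum gave 0 of 21 (0%), with 7 at an unadjusted p under 0.05 and 0 calls by DESeq2. Serum against 2i gave 1 of 21 (4.76%), with 6 at an unadjusted p under 0.05 and 5 calls by DESeq2. The 3 comparisons share their groups and are not independent of each other.

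The pair called was Nestin-Olig1-Olig2, with O/E of 1.01 and 1.02 in 2i, 1.07 and 1.06 in serum, and 1.04 and 1.04 in NPCs. It rose in serum over 2i by 0.073 ± 0.017 on the log2 scale (SE, edgeR adjusted p = 0.0339), the libraries not overlapping, as was so for 15 of the 21 pairs of loci in this comparison. That call was lost without replicate 1 of 2i (0.064, edgeR adjusted p = 0.228), without either serum library (edgeR adjusted p = 0.152 and 0.166) and with the pairs over 0.01% left out (edgeR adjusted p = 0.0744). The largest difference of any pair, called or not, was a log2 value of 0.10 in NPCs against 2i (Nestin-Nanog), 0.097 in NPCs against serum (Nestin-Nanog) and 0.094 in serum against 2i (Sox2-gene desert).

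On a finer scale, pairs of 100 kb windows in different loci were compared, counts summed over all primer pairs that join them. NPCs against 2i gave 2 calls of 2511 window pairs (0.0796%), both higher in NPCs. NPCs against serum gave 53 (2.11%), 17 higher and 36 lower in NPCs, and serum against 2i gave 26 (1.04%), 22 higher and 4 lower in serum. Log2 differences of called pairs had a median of 1.16, 0.81 and 0.97, against 0.14, 0.17 and 0.18 over all window pairs tested. The 53 calls were spread over 16 pairs of loci, with 9 of 231 window pairs in Nestin-Oct4 and 9 of 251 in Olig1-Olig2-Oct4. Both are among the pairs of loci with the most window pairs. Nanog-Oct4, of like size, had 2 of 249, and gene desert-Nanog had 2 of 24. No window took part in more than 4 of the 53 calls.

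These counts depended on single libraries. Without replicate 1 of 2i, or without either serum library, 0 window pairs were called in serum against 2i and 0 in NPCs against 2i by edgeR, with 117 to 349 at an unadjusted p under 0.05. The latter count was also 0 without replicate 2 of 2i, and it was 14 without replicate 1 and 11 without replicate 2 of NPCs. NPCs against serum had 2 calls without serum replicate 1, 0 without serum replicate 2 and 221 without NPC replicate 1. Each of the 10 named calls was lost when either serum library was left out. Without both low-share libraries there were 0, 85 and 27 calls.

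Most of these calls also rested on a single primer pair. A called window pair summed a median of 210 primer pairs, and its strongest primer pair held up to a median of 58.6% of its counts in a library. When that primer pair was left out, the log2 difference of group means fell from a median of 0.87 to 0.18 over the 81 calls. It lost over 50% of its size or turned in 62 of 81, of which 23 turned, and kept at least 80% in 6. The strongest primer pair was chosen by its counts in the libraries compared, which by itself lowers what remains. Non-overlap of the groups was a condition for naming a window pair. It held for 37.3% of all 2511 window pairs in NPCs against 2i, 48.0% in NPCs against serum and 55.8% in serum against 2i.

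The largest rise in NPCs joined Nestin chr3:88182064-88282063 with Oct4 chr17:34628607-34728606. O/E was 1.79 and 2.11 in 2i, 1.33 and 1.67 in serum, and 4.07 and 4.86 in NPCs, both NPC libraries lying above all others. The log2 difference was 1.19 ± 0.16 against 2i (SE, edgeR adjusted p = 0.0267) and 1.57 ± 0.16 against serum (edgeR adjusted p = 0.00229). A single primer pair of its 84 held 43.9%, 43.0%, 32.6%, 50.6%, 68.1% and 85.2% of its counts, in the same order of libraries. Without it O/E was 1.02, 1.22, 0.900, 0.831, 1.33 and 0.744, and the groups overlapped.

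Nanog chr6:122186812-122286811 with Oct4 chr17:35428607-35528606 was the other call against 2i, with O/E of 1.22 and 1.30 in 2i, 1.52 and 1.71 in serum, and 2.40 and 3.11 in NPCs (log2 difference 1.12 ± 0.16, SE, edgeR adjusted p = 0.0267). Without its strongest primer pair O/E was 0.909 and 0.748 in 2i and 0.693 and 0.970 in NPCs, which overlapped. Klf4 chr4:55196446-55296445 with Nestin chr3:87382064-87482063 was the second rise over serum, at 1.01 and 1.04 in serum and 3.51 and 2.39 in NPCs (1.53 ± 0.19, SE, edgeR adjusted p = 0.00341). Without its strongest primer pair it was 0.823 and 0.880 against 1.06 and 0.901, still not overlapping but with a log2 difference of 0.20.

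Among falls in NPCs against serum the part of the strongest primer pair differed. Olig1-Olig2 chr16:91611387-91711386 with Oct4 chr17:36428607-36528606 had O/E of 1.81 and 1.41 in serum and 0.702 and 0.565 in NPCs (log2 difference -1.34 ± 0.18, SE, edgeR adjusted p = 0.0050). Its strongest primer pair had 922 and 683 counts in serum, 14 and 9 in NPCs, and 1 and 4 in 2i, and without it the difference was 0.19. Nestin chr3:87382064-87482063 with Oct4 chr17:35028607-35128606 had 2.19 and 2.52 in serum, 1.01 and 0.908 in NPCs, and 0.613 and 1.09 in 2i. Serum lay above both other groups there, by a log2 difference of 1.29 ± 0.22 over NPCs and 1.43 ± 0.22 over 2i (SE, edgeR adjusted p = 0.0171 and 0.0124). Without its strongest primer pair serum had 1.30 and 1.52, 2i 0.618 and 0.905, and NPCs 0.849 and 0.914, so serum still lay above both.

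In serum against 2i the second rise was Sox2 chr3:34407374-34507373 with Oct4 chr17:34428607-34528606, with O/E of 0.909 and 1.03 in 2i, 2.37 and 2.26 in serum, and 1.18 and 1.06 in NPCs (1.25 ± 0.16, SE, edgeR adjusted p = 0.00551). Without its strongest primer pair, which had 4384 and 3653 counts in serum, the values were 0.841, 0.913, 0.929, 0.981, 0.978 and 0.815, and the log2 difference between serum and 2i was 0.12. Nanog chr6:122686812-122786811 with Oct4 chr17:34528607-34628606 fell in serum, from 1.91 and 1.23 in 2i to 0.843 and 0.647 (-1.06 ± 0.21, SE, edgeR adjusted p = 0.0446), and without its strongest primer pair the groups overlapped. Nanog chr6:122786812-122886811 with Olig1-Olig2 chr16:91011387-91111386 fell from 1.65 and 1.74 to 0.925 and 0.796 (-0.98 ± 0.14, SE, edgeR adjusted p = 0.0117). Without its strongest primer pair it had 1.17 and 1.24 in 2i and 0.799 and 0.720 in serum, which did not overlap. With their strongest primer pairs kept, 55.8% of all window pairs did not overlap in this comparison. Without both low-share libraries, the 2 differences of NPCs from 2i were 0.95 and 0.88 (edgeR adjusted p = 0.116 and 0.188), and that of the Nanog and Oct4 windows in serum against 2i was -0.72 (edgeR adjusted p = 0.0874), while the other 7 named calls held.

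Fragments differed widely in how much of their counts went to other loci. The 3 fragments with the most between-locus counts all took part in strong pairs: the Nestin and the Olig1-Olig2 fragment of the strongest pair, with 804997 and 717889 between-locus counts over the 6 libraries, and Oct4 chr17:34532082-34532748 with 494360. Strong pairs included, other loci took 47.8% to 79.3% of the counts of the Nestin fragment and 50.7% to 82.2% of those of the Olig1-Olig2 fragment, but 4.41% to 14.2% of those of the Oct4 fragment. That Oct4 fragment also formed the strongest within-locus pair, with chr17:34442859-34444375, which held 3.61% and 3.06% of all forward-reverse counts in 2i, 5.54% and 6.78% in serum, and 2.98% and 2.30% in NPCs.

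Between-locus totals of fragments, the 65 pairs left out, hardly followed fragment length (Spearman's rho 0.0027 to 0.15 across 1551 fragments), while within-locus totals followed it somewhat more (0.12 to 0.36). Between- and within-locus totals of a fragment correlated with rho of 0.44 to 0.71. These points share primers and libraries and the values are a description. Fragments holding a CTCF peak of the same cells numbered 255 in 2i, 240 in serum and 137 in NPCs; CTCF is the DNA-binding protein that anchors many chromatin loops. Their median between-locus level was 0.909 to 1.08 times that of fragments without a peak, depending on the library. Fragments with a peak were longer, with a median of 6246 bp against 2224.5 bp in 2i, and their median between-locus share was lower in all 6 libraries, for example 6.07% against 8.06% in replicate 1 of 2i. Among the shorter fragments, where only 21 to 45 held a peak, the ratio of levels was 0.722 to 0.926. Among the longer fragments, where 116 to 210 held a peak, it was 0.908 to 1.06. Of the 120 fragments in strong pairs 15.0%, 13.3% and 8.33% held a peak in 2i, serum and NPCs, against 16.6%, 15.7% and 8.87% of the other fragments.

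Fragments near the ends of a locus had a higher between-locus share, in a comparison that mixes position with locus. The gene desert spans only 198 kb, so its 50 fragments all lie within 100 kb of an end. Its between-locus share was the highest of all loci in both serum libraries, and position was not separated from locus. The median between-locus share of the 277 fragments within 100 kb of a locus end exceeded that of inner fragments in each library: 8.72% against 7.51% and 15.9% against 14.1% in 2i, 18.0% against 14.7% and 20.2% against 15.5% in serum, and 14.3% against 13.1% and 10.1% against 9.33% in NPCs. Their between-locus level was not higher, at 75.4 against 80.6 CPM in replicate 1 of 2i and 141 against 141 in replicate 1 of NPCs. Their within-locus level was lower in each library, for example 571 against 834 CPM in replicate 2 of serum.

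Loci also differed. Counting each contact at both of its fragments and leaving out the strong between-locus pairs, other loci took 9.19% ± 2.28 of the counts of Oct4 fragments (SD, n = 6 libraries), 11.8% ± 3.4 of Olig1-Olig2, 12.2% ± 3.7 of Nestin, 13.3% ± 4.0 of Klf4, 15.0% ± 4.0 of Sox2, 17.3% ± 7.9 of the gene desert and 18.3% ± 4.9 of Nanog. The order of the loci varied between libraries, the gene desert being highest in both serum libraries and Nanog in both NPC libraries. These shares were not adjusted for the number of primer pairs that a locus has within itself. Oct4 and Olig1-Olig2 have the most fragments (317 and 274), and Nanog and the gene desert the fewest (189 and 50). Sox2, with 265 fragments, nevertheless stood above Nestin, with 205. The part of locus size in this order was not tested. By 100 kb window the mean share ran from 4.88% at Oct4 chr17:34428607-34528606, which holds the partner in the strongest within-locus pair, to 34.6% at Nanog chr6:122986812-123086811, which has 6 fragments. Within a locus the highest window was 1.14 (gene desert) to 3.56 times (Oct4) the lowest.

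Relative to its library's share, several loci differed between ES cells and NPCs. The library's share here also leaves out the strong pairs. It was 7.11% and 13.9% in 2i, 14.7% and 15.3% in serum, and 13.1% and 9.45% in NPCs. Oct4 stood at 0.704 and 0.766 of the library's share in 2i, 0.695 and 0.662 in serum, and 0.839 and 0.862 in NPCs, the NPC libraries lying above all ES libraries. The gene desert went the other way, with 1.36 and 1.41 in 2i, 1.63 and 1.84 in serum, and 1.04 and 0.937 in NPCs. Olig1-Olig2 stood at 1.06 and 1.03, 0.991 and 0.987, and 0.884 and 0.840, again without overlap between ES cells and NPCs. Nanog was highest in NPCs, with 1.41 and 1.28, 1.49 and 1.50, and 1.65 and 1.63.

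Within-locus counts of these loci varied more between libraries than their between-locus counts. Oct4 fragments held 23.1%, 23.4%, 23.5%, 23.3%, 22.7% and 21.6% of between-locus counts, but 33.6% and 31.7% of within-locus counts in 2i, 35.6% and 37.4% in serum, and 27.7% and 25.4% in NPCs. Olig1-Olig2 fragments held 16.1% to 16.7% of between-locus counts in every library, and 15.4%, 16.1%, 16.5%, 16.4%, 19.3% and 19.7% of within-locus counts. The gene desert held 3.05% to 3.53% of between-locus counts, and 2.41%, 2.14%, 1.67%, 1.43%, 3.38% and 3.67% of within-locus counts.

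**Figure D5:**
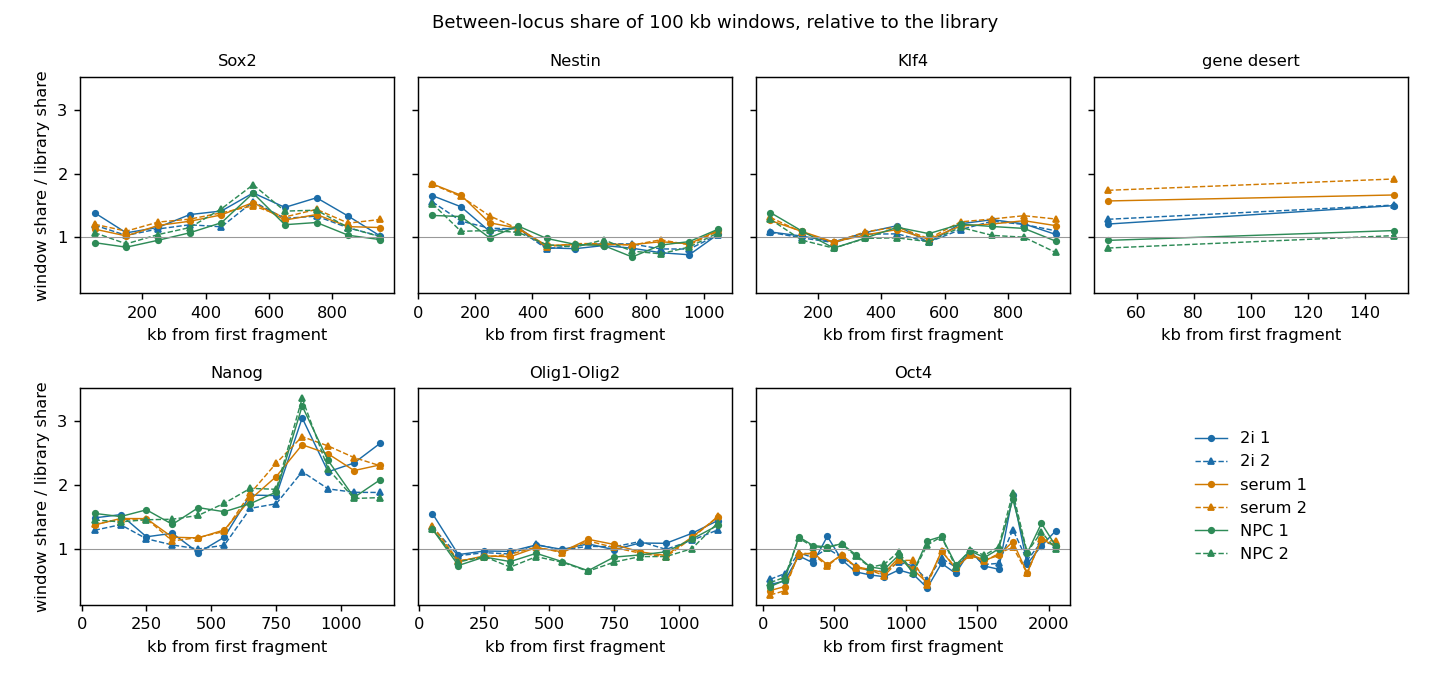
Between-locus share of each 100 kb window divided by the share of its library, against the distance of the window's centre from the first fragment of the locus (kb), 1 line per library. Both shares leave out the 65 strong primer pairs. The Nanog locus is highest to the right of its middle in every library, and the NPC lines lie above the ES lines in much of Oct4 and below them in the gene desert.

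Single windows were tested for the between-locus count given the window's total and the library's share, so that a rise is relative to the other windows of the library. NPCs against 2i gave 28 of 78 windows (35.9%), 16 higher and 12 lower in NPCs. NPCs against serum gave 32 (41.0%), 15 higher and 17 lower, and serum against 2i gave 14 (17.9%), 8 higher and 6 lower in serum. NPCs against serum had 20 and 14 calls without serum replicate 1 and 2 and 21 without NPC replicate 2. Serum against 2i had 2 and 5 without replicate 1 and 2 of 2i, and 6 and 4 without replicate 1 and 2 of serum. By locus, 11 of 21 Oct4 windows passed the test in NPCs against 2i and 12 against serum, all of them rises. Of 12 Olig1-Olig2 windows 7 and 5 passed, all of them falls. Both gene desert windows fell in NPCs against both ES groups. Of 12 Nanog windows 4 rose over 2i, and 3 rose and 1 fell against serum. Of 10 Sox2 windows 2 fell against 2i and 3 against serum, and of 11 Nestin windows 4 fell against serum.

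With the strongest within-locus pair left out of the totals, 13 Oct4 windows rose in NPCs over 2i and 2 fell, 12 rose over serum and 1 fell, and 11 and 10 of the earlier Oct4 calls were among these. Olig1-Olig2 then had 7 and 3 calls, all of them falls, and both gene desert windows were again called against both ES groups. In serum against 2i the count fell from 14 to 9. This alternative was chosen after seeing the data.

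The largest rise in NPCs was at Oct4 chr17:35528607-35628606, a window with a single fragment and 10484 between-locus counts over the 6 libraries. Its share was 2.74% and 7.10% in 2i, 6.80% and 6.51% in serum, and 14.8% and 10.0% in NPCs, a log2 difference beyond the library-wide share of 1.28 ± 0.21 against 2i (SE, edgeR adjusted p = 0.00366) and 1.30 ± 0.21 against serum (edgeR adjusted p = 0.00334). Nanog chr6:122586812-122686811, with 19 fragments, rose over 2i, from 6.67% and 13.8% to 21.6% and 14.4% (0.71 ± 0.065, SE, edgeR adjusted p = 0.000139). Oct4 chr17:36128607-36228606 rose over serum, from 16.3% and 15.7% to 23.3% and 17.8% (0.77 ± 0.14, SE, edgeR adjusted p = 0.00608).

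Olig1-Olig2 chr16:91211387-91311386, with 22 fragments, had the largest fall against 2i and the second largest against serum. Its share was 7.65% and 14.4% in 2i, 16.8% and 17.2% in serum, and 8.60% and 6.10% in NPCs. The log2 difference beyond the library-wide share was -0.70 ± 0.064 against 2i (SE, edgeR adjusted p = 0.000139) and -0.81 ± 0.064 against serum (edgeR adjusted p = 8.61e-05). In the gene desert, chr5:133305260-133405259 had 8.60% and 17.8% in 2i, 23.1% and 26.7% in serum, and 12.5% and 7.87% in NPCs. It fell in NPCs against serum by 0.89 on the log2 scale (SE 0.085, edgeR adjusted p = 0.000185) and rose in serum over 2i by 0.41 (SE 0.085, edgeR adjusted p = 0.0189), a call lost without either 2i library (edgeR adjusted p = 0.109 and 0.0780) and without serum replicate 2 (0.0644). The other gene desert window, chr5:133405260-133503397, fell in NPCs against 2i by 0.49 (SE 0.084, edgeR adjusted p = 0.00366).

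In serum against 2i, Nanog chr6:122886812-122986811 rose from 13.0% and 23.7% to 31.3% and 36.0% (0.34 ± 0.099, SE, edgeR adjusted p = 0.0466). Oct4 chr17:34428607-34528606 fell beyond the library-wide share, with 3.11% and 7.23% in 2i against 5.03% and 4.19% in serum (-0.64 ± 0.13, SE, edgeR adjusted p = 0.0189). Oct4 chr17:34828607-34928606 fell likewise, with 8.50% and 13.9% against 11.0% and 11.2% (-0.57 ± 0.099, SE, edgeR adjusted p = 0.0189). Of these, the Nanog call and the first Oct4 call were lost without the strongest within-locus pair (edgeR adjusted p = 0.0823 and 0.367), the second Oct4 call was not. The Nanog call was also lost when any single library was left out, with an edgeR adjusted p of 0.0738 to 0.543, and the first Oct4 call without either 2i library (0.0738 and 0.115).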

How the data were processed

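Each deposited 5C table holds raw counts of reads per primer pair. The submitters' processing notes name Bowtie as a tool and mm9 as the build; no source used here gives the read filters. Fragment positions and the starts and ends of CTCF peaks (other values, as deposited; peaks by MACS2 per the submitters' processing notes, 1 list per group) were read from the files. Forward-reverse pairs of the 6 untreated libraries were used, and same-orientation pairs were kept apart. No sequence or gene annotation of that build was used here, so fragments are named by locus and position only.

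Expected counts were fitted iteratively per library to the between-locus totals, the 65 primer pairs over 0.1% of a library's between-locus counts left out. Fragments were placed in 100 kb windows by midpoint. edgeR 4.0.16 (quasi-likelihood, R 4.3.3) tested counts with log expected counts or window totals as offset, filterByExpr for window pairs only, group as the only term, Benjamini-Hochberg adjustment within each comparison. SE is the log2 difference over the square root of F. DESeq2 1.42.0, TMM, other window sizes, thresholds and expected counts, the replicate block and leaving out libraries were alternatives. Python 3.11.15, numpy 2.4.6, pandas 2.3.3, scipy 1.17.1 and bedtools 2.31.1 (peaks within fragments) were used.

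On simulated data for NPCs against 2i, 96 of 100 window pairs changed by a log2 value of 1 and 27 of 100 changed by 0.5 were recovered over 2512 window pairs, with 0.806% false calls. Over 78 windows 10 of 10 were recovered at either size and 9.09% of calls were false, and over 21 pairs of loci 6 calls were made with 0 false. These rates describe the simulated counts. Whether they hold for the real counts, where most window-pair calls rested on a single primer pair, was not tested.

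Members, lists and tests were chosen with earlier results of these data known. Named were all loci and pairs of loci past the threshold; per comparison the 2 largest rises and falls past it among window pairs with at least 100 counts and groups not overlapping, and among windows; the 5 strong primer pairs and 3 fragments with the most counts. The strong pairs named for their differences between libraries were chosen after their values were seen.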

Additional observations from a re-analysis of the deposited data

Results flagged for a closer look

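Groups of 2 libraries are too small for a check of single libraries within a group. Counts outside the comparisons came from primer pairs of the same orientation, which an alternating design does not set out to join. Between different loci they numbered 9328 and 59253 in ES cells in 2i, 110963 and 76596 in serum, and 10690 and 8741 in NPCs. They made up 36.3% and 72.8% of all same-orientation counts in 2i, 52.9% and 55.0% in serum, and 36.0% and 37.5% in NPCs, far more than the between-locus share of forward-reverse counts. They were spread thinly: of 504181 such pairs, 8390 to 81234 were detected in a library, with 1.04 to 1.37 counts each, and the highest pair held 103 counts. Adding them moved the between-locus share of a library little, for example from 15.9% to 16.2% in replicate 2 of 2i.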

How the results depend on the processing

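Counts of calls are given for NPCs against 2i, NPCs against serum and serum against 2i, and the cause of a change was not tested. Of 21 pairs of loci, where 0, 0 and 1 were called, DESeq2 called 1, 0 and 5, and a fit of only the groups compared called 1 and 5 in the first and last. No primer pair left out gave 8 and 8 in the last 2 comparisons, and the expected count from all totals gave 11, 13 and 3. The pairs over 0.01% left out gave 0 for serum against 2i. Of 2511 window pairs, where 2, 53 and 26 were called, DESeq2 called 18, 110 and 93, and the expected count from all totals 173, 425 and 90. The pairs over 0.01% left out gave 0, 15 and 4, and no primer pair left out gave 0 and 10 in the first and last. Only the groups compared gave 0 and 123 there, windows of 50 kb gave 6 of 9522 (0.063%) in the first, and windows of 200 kb gave 0 and 35 of 660 (5.3%) in the first 2. Of 78 windows, where 28, 32 and 14 were called, no primer pair left out gave 9 in serum against 2i. Of 1551 single fragments 236, 215 and 1 were called.

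Same-numbered libraries deviated together with r = 0.124 for 2i and serum, -0.386 for 2i and NPCs, and -0.134 for serum and NPCs over 2511 window pairs, so the numbers were not taken to pair them. The replicate block gave 0 pairs of loci in serum against 2i, and 17 and 0 windows in the last 2 comparisons. With NPC numbers crossed, chosen after seeing the data, the block gave 1 and 3 pairs of loci and 15 and 246 window pairs in the first 2. Also chosen after seeing the data, leaving out both low-share libraries gave 1 and 0 pairs of loci in the last 2 comparisons, 0 and 85 window pairs in the first 2, and 32 windows in serum against 2i, and leaving out the strongest within-locus pair gave 9 windows there.

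Leaving out single libraries gave 0 to 1, 0 to 4 and 0 to 5 pairs of loci, 0 to 14, 0 to 221 and 0 to 127 window pairs, and 19 to 37, 14 to 30 and 2 to 11 windows. Window-pair counts were highest without NPC replicate 1 in all 3 comparisons. Differences of the between-locus share ranged from -2.81 to 5.02, -7.53 to -2.79 and 2.35 to 10.2 percentage points. The Sox2-Nestin excess was 0.042 to 0.071 on the log2 scale without single libraries (5 libraries cannot go below an exact p of 0.0625), 0.088 with expected counts from all totals, and -0.40 with no primer pair left out. With the pairs over 0.01% left out, Nestin chr3:88182064-88282063 with Oct4 chr17:34628607-34728606 turned to -0.39 against 2i and -0.064 against serum, and Oct4 chr17:36428607-36528606 with Olig1-Olig2 turned to 0.075. Over all alternatives, 269 of 346 values of the 23 named results kept direction and side of the threshold, 74 lost the call and 3 turned. Single primer pairs were detected in 48.6% to 74.8% of cases in a library.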

Other observations

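Some pairs of 100 kb windows were off their expected count in the same direction in all 6 libraries. Of 2271 window pairs with an expected count of at least 100 in each library, 96 had an O/E over 1.25 in all 6 and 86 under 0.8 in all 6, and the median O/E was 0.919. Sox2-Nestin had 8 of the 96 among its 110 window pairs and 1 of the 86. It did not stand alone, as Nestin-Olig1-Olig2, on different chromosomes, had 10 of the 96 among 128 window pairs. The other pairs of loci had from 0, as in gene desert-Nanog with 20 window pairs, to 11, in Nanog-Oct4 with 184. The following window pairs were chosen after their values were seen. The highest mean O/E, 5.01 ± 1.56 (SD, n = 6 libraries), was Nanog chr6:123186812-123286811 with Oct4 chr17:34828607-34928606, and 1 primer pair of its 97 held 46.5% of its counts. Nanog chr6:122886812-122986811 took part in the next 3 highest, with Oct4 chr17:35228607-35328606 (5.00 ± 2.07), Sox2 chr3:34307374-34407373 (4.97 ± 0.82) and Oct4 chr17:36028607-36128606 (3.56 ± 1.41), and a single primer pair held 90.0%, 39.2% and 84.1% of their counts.

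The same Nanog window was in the 4 window pairs with the lowest mean O/E, 0.485 ± 0.100 with Nestin chr3:87582064-87682063, 0.495 ± 0.176 with Nestin chr3:88182064-88282063, 0.513 ± 0.067 with Klf4 chr4:55496446-55596445 and 0.514 ± 0.137 with Oct4 chr17:36228607-36328606. That Nanog window has 10 fragments. Expected counts meet each primer's total, so the high and the low O/E values of a window offset each other. The low values are therefore not independent of the high ones, and whether they would remain without the strongest primer pairs was not tested.

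Among the 65 strong primer pairs, 1 was chosen after its values were seen. Sox2 chr3:34690333-34693240 with Klf4 chr4:55774925-55775391 had 136 and 343 counts in 2i, 54 and 83 in serum, 370 in replicate 1 of NPCs and 2098 in replicate 2 of NPCs, where it held 0.133% of the between-locus counts, and it was lowest in both serum libraries.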
